A study of Danio rerio with 6 samples.

Results

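Alternative exon-end events are exons that begin or stop at more than one position, so that a gene makes a shorter and a longer form of the same exon. They were measured here by RNA-seq in whole zebrafish embryos at 3 days post fertilisation. Members were the events of this type that had a gene ID and an abundance of at least 1 FPKM (sequenced fragments scaled to transcript length and to the library's total) in at least 3 of the 6 libraries. By that rule 3267 events in 2173 genes were kept, of 5425 such events listed with a gene and of 75550 events of all types. The 2 genotypes were wild type (3 libraries, titled TU) and csf1ra-/- (3 libraries, homozygous for a knockout made with CRISPR/Cas9). Per the labels, 30 embryos were collected, which can be read as per genotype or per sample, and 1 μg of total RNA went into each library. Whether the libraries of a genotype are separate clutches is not stated, and p-values reflect only how far these samples vary, which may in part be technical. The sources used here name neither the allele nor the background of the mutant line.

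An internal exon starts at a 3′ splice site, or acceptor, and stops at a 5′ splice site, or donor. When the spliceosome can choose between acceptors, the upstream end of the exon moves, and when it can choose between donors, the downstream end moves. Acceptors a single codon apart are a known class of such choices, and a shift by a multiple of 3 bases in coding sequence adds or removes whole codons and keeps the reading frame. An exon end can also move where an exon runs on into the neighbouring intron, or where a last exon ends at another polyadenylation site. The product of csf1ra is a receptor tyrosine kinase for colony-stimulating factors, known for its roles in macrophages, in microglia and in xanthophores, the yellow pigment cells of the skin.

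Each library listed 3924 to 4065 alternative exon-end events, with a median abundance of 3.49 to 3.71 FPKM. The tables hold no read totals, and sequencing depth is therefore unknown. An event is listed in a library only where it has an FPKM. A missing event can thus be one that was not used or one whose transcript was not assembled there, and the 2 cannot be told apart. The targeted gene, csf1ra, had totals of 4.54, 4.07 and 3.72 FPKM in wild type, was not listed in mutant replicates 1 and 2, and stood at 0.563 FPKM in mutant replicate 3. The macrophage marker mpeg1.1 was not listed in any library. In bulk embryos, fewer cells of a type and less RNA per cell cannot be told apart.

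The members had a median abundance of 4.65 FPKM, with quartiles of 2.28 and 9.94 FPKM, and a median exon length of 144 bp. Of the 3267 members, 2750 were listed in all 6 libraries. For 859 members no other listed event of this type overlapped the exon, so they had no second form to compare. The most abundant were exons of housekeeping and muscle genes. The actb1 event, in a cytoplasmic actin gene, stood at 1560 ± 240 FPKM (SD, n = 3) in wild type and 1440 ± 240 FPKM in the mutant. An exon of tnnc2, a fast-muscle troponin C gene, stood at 1330 ± 91 and 1270 ± 31 FPKM, and an exon of rpl18, a ribosomal protein gene, at 886 ± 80 and 943 ± 36 FPKM. A pair of exons assigned to the gene symbol SNORA31 each stood at 1380 FPKM in wild type and 1400 FPKM in the mutant. A small nucleolar RNA has no such exons, so these values may belong to the host transcript, whose identity was not tested. Around the limit of the rule, 376 events that reached 1 FPKM in 2 libraries had a median mean abundance of 0.77 FPKM, and the 284 that reached it in 3 libraries had 1.15 FPKM.

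Most genes had a single member event (1401 of 2173), 582 had 2 and 190 had more. The gene with the most was ubb, a polyubiquitin gene built of near-identical repeats, with 11 events of 1.08 to 11.2 FPKM. Because reads from such repeats can be assigned to more than one of them, the ubb values are uncertain. After it came igsf9ba, of the immunoglobulin superfamily, and mark2a, a kinase gene of cell polarity, with 8 events each. The gene ep300b, which encodes a histone acetyltransferase, had 7 events. Of the 11 ubb events, only 4 entered the share test described below. No tested event of these 4 genes passed it, and the smallest adjusted p among them was 0.0733, in igsf9ba.

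For 680 pairs of members in 562 genes, both forms shared one end and differed at the other, which lets the position of the choice be read from the coordinates. The moving end was the upstream one in 337 pairs and the downstream one in 343 pairs. The ends lay a median of 33 bp apart, with quartiles of 18 and 85.5 bp. The distance was a multiple of 3 in 490 of the 680 pairs, or 72.1%. Over all 2390 listed pairs of this kind, members or not, the proportion was 58.0%, and over the 1710 pairs in which at least 1 form was not a member it was 52.4%. Whether each exon lies in coding sequence was not looked up, because no annotation of this build was used.

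The pattern of distances was not even. At 12 to 30 bp, 85.6% of 277 pairs differed by a multiple of 3, against 38.0% of the 129 pairs with more than 150 bp between the ends. Between these limits the proportion was 80.4% at 31 to 60 bp and 72.3% at 61 to 150 bp. At the shortest distances, 1 to 11 bp, it was 56.8% of 37 pairs. The most frequent distances were 12 bp (50 pairs), 15 bp (47 pairs), 18 bp (34 pairs), 21 bp (31 pairs) and 33 bp (30 pairs). A distance of 3 bp was seen in 19 pairs, and 18 of these differed at the upstream end, where acceptors one codon apart would place them. Distances of 4 bp were seen in 1 pair. Within a pair, the less abundant form held a median of 26.9% of the summed abundance, and the longer form was the more abundant one in 310 of the 680 pairs.

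**Figure D1:**
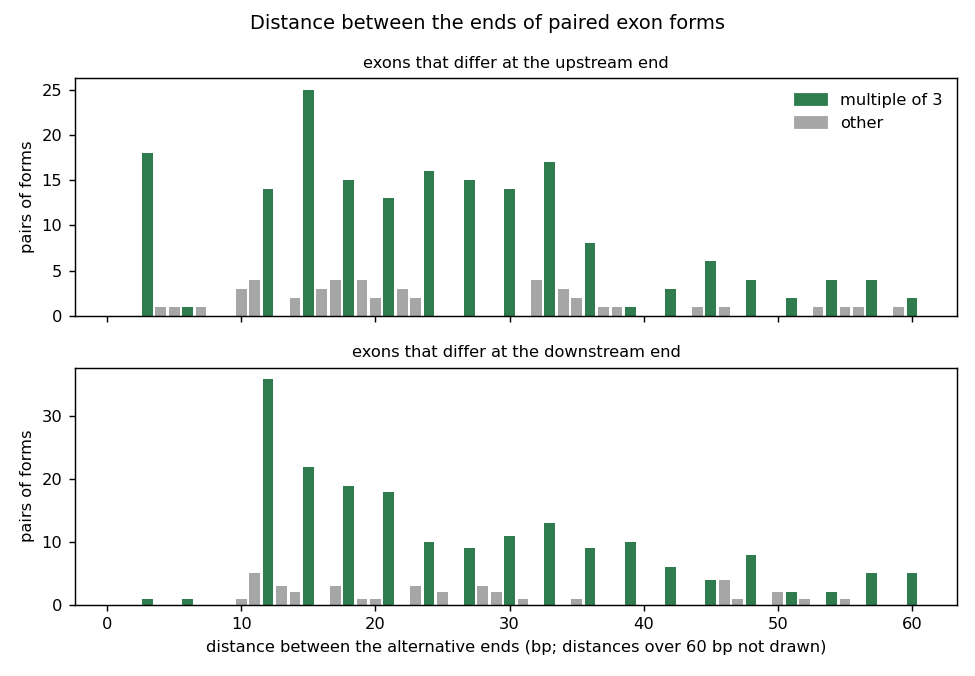
Number of pairs of member forms (y axis) at each distance between the alternative ends in bp (x axis, up to 60 bp), for exons that differ at the upstream end (top) and at the downstream end (bottom). Green bars are multiples of 3 and grey bars other distances; the bar at 3 bp is high at the upstream end (18 pairs) and near 0 at the downstream end (1 pair).

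To ask whether the choice of exon end differed between genotypes, each event's abundance was divided by its gene's total, which gives the share of the gene's transcripts that carry that form. Over all members the median share was 77.7%, with quartiles of 42.3% and 96.3%. Of the 3267 members, 2160 events in 1297 genes could be tested. The others had no gene total (4), a gene total under 1 FPKM in a library (202), a mean share under 5% (37) or a mean share over 95% (864). Shares above 100% occur where even the larger of the summed first-exon and last-exon abundances is below that of the event. They were held at 100% and touched 84 tested events. An event that was not listed entered as a share of 0.

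The shares varied widely between libraries of one genotype. The median SD over the tested events was 9.29 percentage points in wild type and 9.96 in the mutant (n = 3 each). It fell with abundance, from 12.6 points in wild type for events under 2 FPKM to 4.95 points for events of at least 20 FPKM. Any 2 libraries of one genotype differed by 14.7 to 17.2 points on average over the events, and a wild-type and a mutant library differed by 16.3 to 18.6 points. These ranges overlap, so the average difference between genotypes was close to that between replicates.

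**Figure D2:**
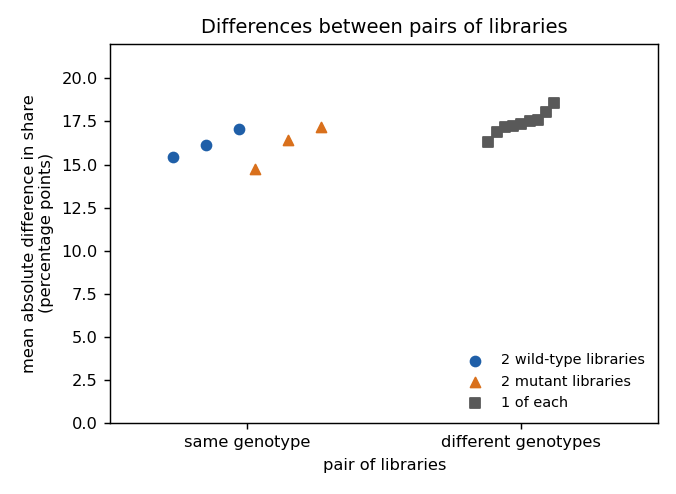
Mean absolute difference in share (y axis, percentage points) over the tested events for each pair of libraries, split on the x axis into pairs of the same genotype and pairs of different genotypes. The 6 pairs of one genotype lie at 14.7 to 17.2 points and the 9 mixed pairs at 16.3 to 18.6 points, so the ranges overlap.

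In the test of each event's share (limma, Benjamini-Hochberg adjustment over the 19411 tested events of all types), 27 of 2160 alternative exon-end events (1.25%) passed an adjusted p of 0.05, against 1.45% of events of all types. Of the 27, 16 had a higher share in the mutant and 11 a lower share. The backgrounds over all types were 0.819% higher and 0.629% lower. The 27 events lay in 22 genes on 16 chromosomes. Their differences ran from 14.8 to 100 percentage points with a median of 72.3, while the median absolute difference over all 2160 events was 7.76 points. In all 27 the genotypes did not overlap, as was so for 315 of the 2160 events (14.6%, against 15.4% over all types). With 3 against 3 the exact two-sided permutation test of a single event cannot go below p = 0.1, the value each of the 27 reached. The median difference over all 2160 events was 0.20 points.

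Of the 27 events, 13 were listed in all libraries of 1 genotype and in none of the other, 8 in the mutant and 5 in wild type. Among all 2160 there were 29 such events, and over all types 1.8% of tested events. Such events met the rule for members only through the genotype that listed them, and their lack of overlap follows from the listing. Some other called events, such as the short form of zgc:162613 and the long form of KIF1C, also reached 1 FPKM in 1 genotype alone. Of the 27, 5 were listed in all 6 libraries. When the share of an unlisted event was left missing in place of 0, 1 event passed, the long form of calua. The 13 events listed in 1 genotype alone could not enter that test, and 13 that did enter lost their call. When the test was kept to events listed in all 6 libraries, 2 passed, the calua long form and sema6dl. On the scale log2((event FPKM + 1)/(gene total + 1)), 27 events also passed, 12 higher and 15 lower, and 19 of them were among the first 27. Leaving out wild-type replicate 1, 2 or 3 gave 17, 13 or 16 calls, and there were 13 without mutant replicate 1 or 2, and 21 without mutant replicate 3; 11 of the 27 events kept their call in all 6 of these fits.

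**Figure D3:**
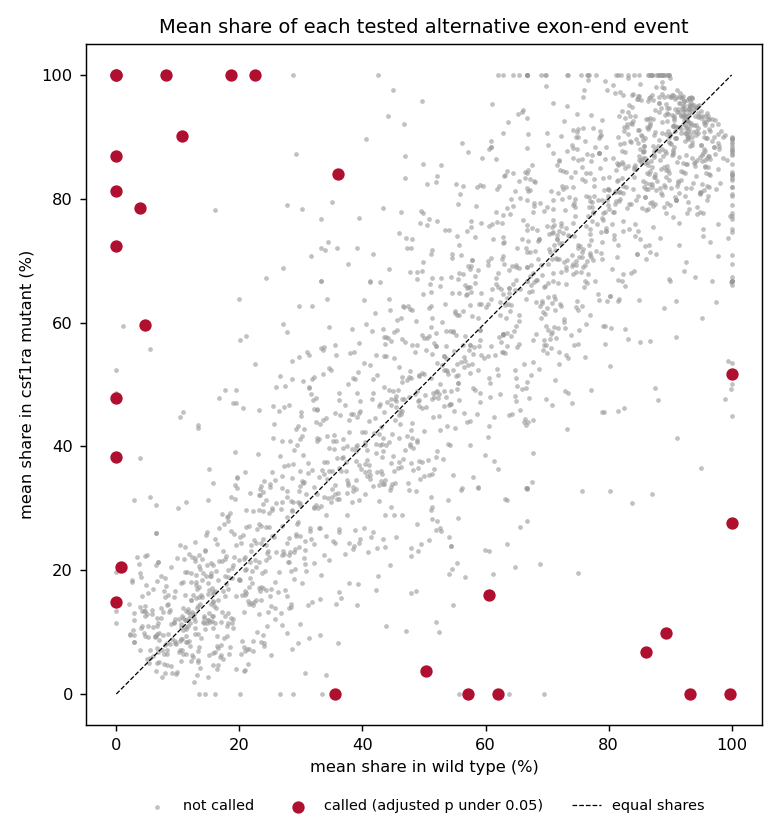
Mean share in wild type (x axis, percent) against mean share in the csf1ra mutant (y axis, percent) for the 2160 tested alternative exon-end events, each point 1 event. The 27 called events (red) lie away from the dashed line of equal shares, many of them on an axis because the event was not listed in 1 genotype.

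For 16 of the 27 events, in 12 exons of 12 genes, each of the 6 libraries listed at least 1 form of the exon, so that a switch from one form to the other could be followed. The moving end was the upstream one in 8 of these exons and the downstream one in 4. The ends lay 10 to 4475 bp apart, and 6 of the 12 distances were a multiple of 3. A second test was of each form's share among the listed forms of the same exon. Overlapping events of a gene were taken as the same exon, also where they were joined only through another event. That test called 21 of 1598 events (1.31% of all events in that test), in 13 exons. Of these, 12 events in 8 genes were also called on the share of the gene. That overlap is no independent result. Where the forms of an exon make up the gene's total, as in calua, bves and KIF1C, both tests use the same shares. In an exon with a short and a long form alone, the share of one fixes that of the other.

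A switch that passed in each fit with a library left out was that of calua (ENSDARG00000045676), which encodes calumenin, a calcium-binding protein of the secretory pathway. The exon lies on GRCz10 chromosome 4, plus strand, and ends at 13571900. Its long form starts at 13571654 and its short form at 13571664, so the upstream end moves by 10 bp. The long form stood at 38.8, 44.6 and 42.0 FPKM in wild type and at 8.74, 10.2 and 8.67 FPKM in the mutant. The short form was not listed in wild type and stood at 26.6, 21.8 and 24.3 FPKM in the mutant. All 3 mutant libraries thus had both forms with the short one ahead, and all 3 wild-type libraries had the long one alone. The long form fell from 100% of the gene to 24.7%, 32.0% and 26.3%, a difference of -72.3 points (SE 5.88, adjusted p = 0.00415), and the short form rose to 75.3%, 68.0% and 73.7% (adjusted p = 0.00233). The gene total was 41.8 ± 2.9 FPKM in wild type and 33.4 ± 1.7 FPKM in the mutant, a log2 change of -0.31 (adjusted p = 0.107). Both events kept their call in all 6 of these fits.

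In zgc:162613 (ENSDARG00000059919, named rusf1 in the gene-name table), the upstream end of an exon on chromosome 3, plus strand, moved by 17 bp. The short form, 32731272 to 32731427, stood at 1.95, 1.82 and 2.14 FPKM in the mutant. In wild type it was not listed in replicate 1 and stood at 0.0693 and 0.0893 FPKM in replicates 2 and 3. Its share rose from 3.82% ± 3.3 to 78.4% ± 0.88 (74.6 points, SE 5.3, adjusted p = 0.00233). The long form, from 32731255, fell from 86.1% ± 11 to 6.76% ± 12 (adjusted p = 0.0204), and it kept the call only when wild-type replicate 1 or mutant replicate 3 was left out (adjusted p of 0.0335 to 0.0987 over the 6 fits that leave out a library). Both forms were low, at 2.14 FPKM or less in every library.

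In ndufaf1 (ENSDARG00000025549), which encodes an assembly factor of mitochondrial complex I, an exon on chromosome 13, plus strand, ends at 33116707. Its short form starts at 33116647, 59 bp inside the long one. The short form was listed in the mutant alone, at 8.61, 8.58 and 8.82 FPKM, and its share of the gene there was 47.8% ± 0.51 (SE of the difference 3.84, adjusted p = 0.00394). The long form stood at 1.55, 2.24 and 2.23 FPKM in wild type, was not listed in mutant replicate 1, and stood at 1.59 and 1.85 FPKM in mutant replicates 2 and 3. Among the forms of this exon the short one went from 0 to 100%, 84.3% and 82.6% (adjusted p = 0.00461). In wild type the long form held 12.8%, 17.0% and 15.3% of the gene, so most ndufaf1 transcripts there carried neither listed form. It held 8.93% and 10.1% in mutant replicates 2 and 3, and its difference of -8.68 points was not called (adjusted p = 0.597). The gene total was 13.3 ± 1.2 FPKM in wild type and 18.1 ± 0.26 FPKM in the mutant (adjusted p = 0.0555). Skipped-exon events of ndufaf1 were called in the same fit. They share the gene's total with the exon-end event, and whether they are a separate change was not tested.

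In ino80db (ENSDARG00000062226), a gene for a subunit of the INO80 chromatin-remodelling complex, both forms were listed in all 6 libraries. The exon lies on chromosome 6, plus strand, and its forms, from 13001720 and from 13001735 to 13001981, differ by 15 bp at the upstream end. The long form stood at 3.31, 3.76 and 4.40 FPKM in wild type and 0.824, 1.44 and 0.558 FPKM in the mutant. The short form stood at 2.37, 2.22 and 2.18 FPKM in wild type and 5.27, 4.26 and 5.55 FPKM in the mutant. The form that was ahead in wild type was thus the lesser one in every mutant library. The short form rose by 47.9 points (SE 7.23, adjusted p = 0.0453) and the long form fell by 44.6 points (SE 6.84, adjusted p = 0.0492), with gene totals of 6.31 ± 0.54 and 5.97 ± 0.23 FPKM. Both calls were lost without any one of the 6 libraries (adjusted p of 0.0778 to 0.16), and also in other fits, such as that on the logit of the share (0.053 for the short and 0.0619 for the long form) and that of events listed in all libraries alone (0.114 and 0.104).

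In KIF1C (ENSDARG00000098655), a kinesin motor gene, the change went the other way, towards the longer exon. The forms lie on chromosome 5, minus strand, from 67549756 to 67549834 or to 67549849, and differ by 15 bp at the upstream end. The short form stood at 2.42, 2.17 and 2.39 FPKM in wild type, and mutant replicate 3 alone listed it, at 0.699 FPKM. The long form stood at 1.63, 1.29 and 1.68 FPKM in the mutant and at 0.181 and 0.733 FPKM in wild-type replicates 1 and 2. Its share rose from 10.7% ± 13 to 90.2% ± 17 and that of the short form fell by as much (79.5 points, SE 11.6, adjusted p = 0.0426 for both). Both calls held without mutant replicate 3 and were lost without any other library (adjusted p of 0.0383 to 0.167).

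In bves, which encodes a membrane protein of the Popeye family found in striated muscle, and in smyd2b, which encodes a lysine methyltransferase, 1 form of each exon was called. The bves exon (ENSDARG00000058548; chromosome 16, plus strand, ending at 7746384) starts at 7746147 or 27 bp further in. Its long form stood at 4.32, 2.97 and 3.25 FPKM in wild type and was not listed in the mutant, where the short form alone stood at 10.5, 11.2 and 8.78 FPKM. The long form fell from a share of 35.6% ± 7.0 to 0 (SE 4.55, adjusted p = 0.0259), and the short form, at 64.4% against 100%, had an adjusted p of 0.061. Leaving out wild-type replicate 3 or any mutant library ended the call (adjusted p of 0.0409 to 0.126).

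The smyd2b exon (ENSDARG00000005629; chromosome 20, plus strand, from 585736) differs by 33 bp at its downstream end, which is 585813 in the short form and 585846 in the long one. The short form stood at 5.88, 6.66 and 5.77 FPKM in wild type and was listed in mutant replicate 2 alone, at 1.16 FPKM. The long form stood at 4.31, 6.83 and 7.39 FPKM in wild type and 12.5, 8.86 and 10.7 FPKM in the mutant. Near-equal use of both forms in wild type thus stood beside use of the long form in the mutant. The short form fell by 46.5 points (SE 6.17, adjusted p = 0.0294), a call that was lost without any one of the 6 libraries (adjusted p of 0.0638 to 0.128). A skipped-exon event of smyd2b was called too.

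A pair of called events were long forms that extended a short exon far into its neighbourhood. In map7d2b (ENSDARG00000045316), of the microtubule-associated MAP7 family, a 4645 bp form on chromosome 24, minus strand, 23965943 to 23970587, shares its downstream end with a 170 bp exon. It stood at 10.6, 7.95 and 9.10 FPKM in the mutant and was listed in wild-type replicate 1 alone, at 1.42 FPKM. Its share rose from 0.782% ± 1.4 to 20.6% ± 2.6 (adjusted p = 0.036). Retained-intron events of map7d2b were called in the same fit. In fbp2 (ENSDARG00000012366), which encodes a fructose-1,6-bisphosphatase of gluconeogenesis, a 947 bp form on chromosome 5, minus strand, 44225516 to 44226462, was listed in the mutant alone, at 8.28, 9.16 and 5.26 FPKM. The 141 bp form stood at 29.6, 28.5 and 35.1 FPKM in wild type and 47.7, 47.2 and 33.8 FPKM in the mutant. The long form held 14.8% ± 1.4 of the gene in the mutant (SE of the difference 2.23, adjusted p = 0.045), and its share among the forms of the exon, 14.8 points higher, had an adjusted p of 0.158. Both calls were lost without any one of the 6 libraries (adjusted p of 0.0767 to 0.145 for map7d2b and 0.0854 to 0.172 for fbp2).

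The other 3 exons with a listed form in each library were those of kif13bb, sema6dl and mfap4. In kif13bb (ENSDARG00000073859), another kinesin gene, the called form on chromosome 20, 50017270 to 50017407, stood at 1.47, 1.76 and 1.25 FPKM in wild type and 1.38, 1.3 and 1.26 FPKM in the mutant (adjusted p = 0.846 for its abundance). Its share fell from 100% to 51.7% ± 2.3 (adjusted p = 0.0173) beside gene totals of 1.49 ± 0.26 and 2.54 ± 0.18 FPKM, and a form 12 bp longer was listed in mutant replicates 2 and 3. The call held without mutant replicate 3 and was lost without any other library (adjusted p of 0.0479 to 0.0837). Its share among the forms of the exon differed by -32.2 points, with an adjusted p of 0.723.

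In sema6dl (ENSDARG00000011533), of the semaphorin family of axon guidance cues, the long form of an exon on chromosome 18, 40391808 to 40391963, stood at 8.69, 9.71 and 9.19 FPKM in the mutant and at 0.655, 0.00832 and 0.0112 FPKM in wild type. Its share rose from 4.71% ± 7.9 to 59.6% ± 6.4 (adjusted p = 0.0206), and the call held only without wild-type replicate 1 (adjusted p of 0.0474 to 0.0987). The short form, 12 bp shorter at the downstream end, stood at 8.53 FPKM in wild-type replicate 2 and was not listed in the other wild-type libraries. In mfap4 (ENSDARG00000090783), a gene of a tandem family used as a macrophage marker in zebrafish, the called form on chromosome 1, 58293806 to 58293973, stood at 2.96 and 1.73 FPKM in wild-type replicates 1 and 3 and at 5.79, 7.15 and 7.12 FPKM in the mutant. Its share went from 18.7% ± 16 to 100% (adjusted p = 0.0195), and the call held only without wild-type replicate 2 (adjusted p of 0.0234 to 0.0898). Among the forms of the exon its share differed by 49.2 points, with an adjusted p of 0.733. First-exon and last-exon events of mfap4 were called in the same fit. The mfap4 total was 7.55 ± 2.6 FPKM in wild type and 6.69 ± 0.77 FPKM in the mutant. Near-identical copies can share its reads, so its values are uncertain.

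**Figure D4:**
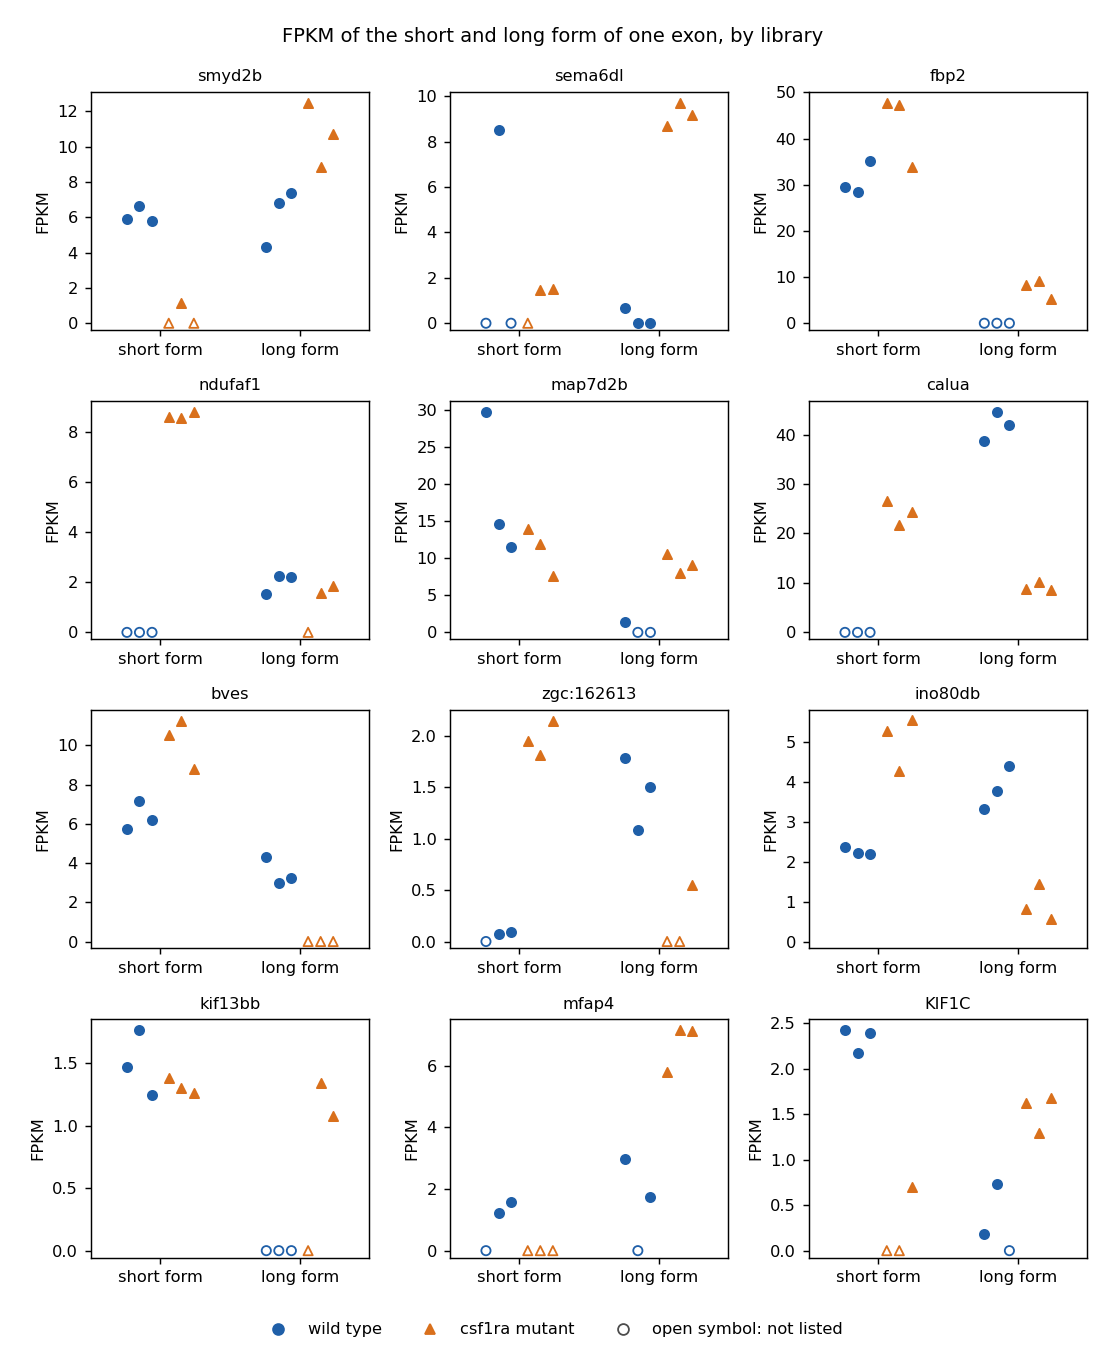
Abundance in FPKM (y axis) of the short and the long form (x axis) of each of the 12 exons that had a called event and a listed form in all 6 libraries, 1 panel per gene. Each symbol is 1 library, blue circles wild type and orange triangles csf1ra mutant, and open symbols at 0 mark libraries that did not list the form. In calua, ino80db, zgc:162613, ndufaf1 and KIF1C the more abundant form changed between genotypes in every library.

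The remaining 11 called events lay in 10 genes where some libraries listed no form of the exon, or where a single form was known. For 6 of them no other form of the exon was listed, and a share of 0 then says only that the exon form was not listed in that library, not which end was used. The noc2l event (ENSDARG00000001754; chromosome 23, 23248131 to 23248271), in a gene of ribosome biogenesis, was not listed in wild type and stood at 5.59, 7.09 and 5.45 FPKM in the mutant, the whole of the gene's total there (adjusted p = 0.000767). The pbrm1l event (ENSDARG00000077038; chromosome 6, 46411024 to 46411109), in a gene related to the chromatin-remodelling subunit polybromo, did the reverse. It stood at 16.3, 17.4 and 15.1 FPKM in wild type, or 99.7% ± 0.066 of the gene, and was not listed in the mutant (adjusted p = 0.000767). In both genes the totals of the genotypes were close, with log2 changes of -0.28 and 0.04 (adjusted p = 0.374 and 0.875). In pbrm1l an intron event and a skipped-exon event were called too.

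The fsd1l event (ENSDARG00000059432; chromosome 5, 69061916 to 69062125) stood at 4.31, 4.27 and 3.11 FPKM in wild type, was not listed in the mutant, and fell from 93.3% ± 12 to 0 (adjusted p = 0.00433). The map7d1b event (ENSDARG00000104701; chromosome 19, 3991024 to 3991084), also of the MAP7 family, stood at 18.7, 18.3 and 19.2 FPKM in the mutant. In wild type it stood at 0.404 and 2.67 FPKM in replicates 2 and 3 and was not listed in replicate 1. Its share went from 8.05% ± 11 to 100% (adjusted p = 0.00447), but its abundance in the mutant exceeded the gene total, 6.52 ± 1.1 FPKM, so that the mutant share was held at 100% and the size of the difference has no clear scale. The gene total itself fell by 0.80 on the log2 scale (SE 0.13, adjusted p = 0.0268). An excess in 1 library was seen for pdhx (ENSDARG00000051756; chromosome 25, 36863004 to 36863188), a component gene of the pyruvate dehydrogenase complex.

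The pdhx event was listed in the mutant alone, at 11.2, 9.83 and 3.56 FPKM beside gene totals of 8.96, 9.83 and 5.84 FPKM (adjusted p = 0.036). The abca2 event (ENSDARG00000013500; chromosome 5, 24639142 to 24639301), in a lipid transporter gene, rose from 22.5% ± 20 to 100% (adjusted p = 0.0384). The pdhx call held without mutant replicate 3 and was lost without any other library (adjusted p of 0.00829 to 0.142). The abca2 call held only without wild-type replicate 1 (adjusted p of 0.034 to 0.146), and the adjusted p was 0.753 with first-exon events alone as the total.

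For the other 5 events a second form was listed in some libraries. In hltf (ENSDARG00000026053; chromosome 2, 25305911 to 25305964), a helicase gene of DNA damage tolerance, the short form made up the gene's total in the mutant, at 1.69, 1.43 and 1.12 FPKM, and was not listed in wild type (adjusted p = 0.000767). The form 43 bp longer was listed in wild-type replicate 3 alone, at 0.931 FPKM. In atg3 (ENSDARG00000009350; chromosome 6, 6961134 to 6961234), which encodes a conjugating enzyme of autophagy, the called form stood at 10.3, 12.7 and 8.65 FPKM in the mutant alone (adjusted p = 0.0182), and a form 2 bp shorter at the downstream end stood at 14.3 FPKM in wild-type replicate 2 alone. The other libraries of wild type listed neither atg3 form. The atg3 call held without mutant replicate 2 or 3 and was lost without any other library (adjusted p of 0.0147 to 0.0935).

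In si:dkey-253d23.4 (ENSDARG00000079762; chromosome 22, plus strand), 2 neighbouring exons, 9842615 to 9842938 and 9843193 to 9843498, were called together. The first stood at 9.32, 11.1 and 10.6 FPKM in wild type and the second at 9.21, 9.93 and 9.31 FPKM, and neither was listed in the mutant. Their shares fell from 62.1% ± 3.8 and 57.2% ± 3.5 to 0 (adjusted p = 0.00344 and 0.00394). The gene total fell from 16.6 ± 0.94 to 5.03 ± 0.048 FPKM, a log2 change of -1.55 (SE 0.09, adjusted p = 0.000143), and first-exon events of the gene were called as well. In sgcg (ENSDARG00000038107), which encodes γ-sarcoglycan of the dystrophin complex of muscle, a 7360 bp form on chromosome 15, 9370824 to 9378183, was listed in the mutant alone, at 1.89, 2 and 1.78 FPKM. It held 38.3% ± 4.1 of the gene there (adjusted p = 0.00933), while wild-type replicate 2 listed 2 shorter forms, wild-type replicate 3 listed 3 and mutant replicate 3 listed 1. The sgcg call was lost without each wild-type library (adjusted p of 0.0153 to 0.064 over the 6 fits).

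**Figure D5:**
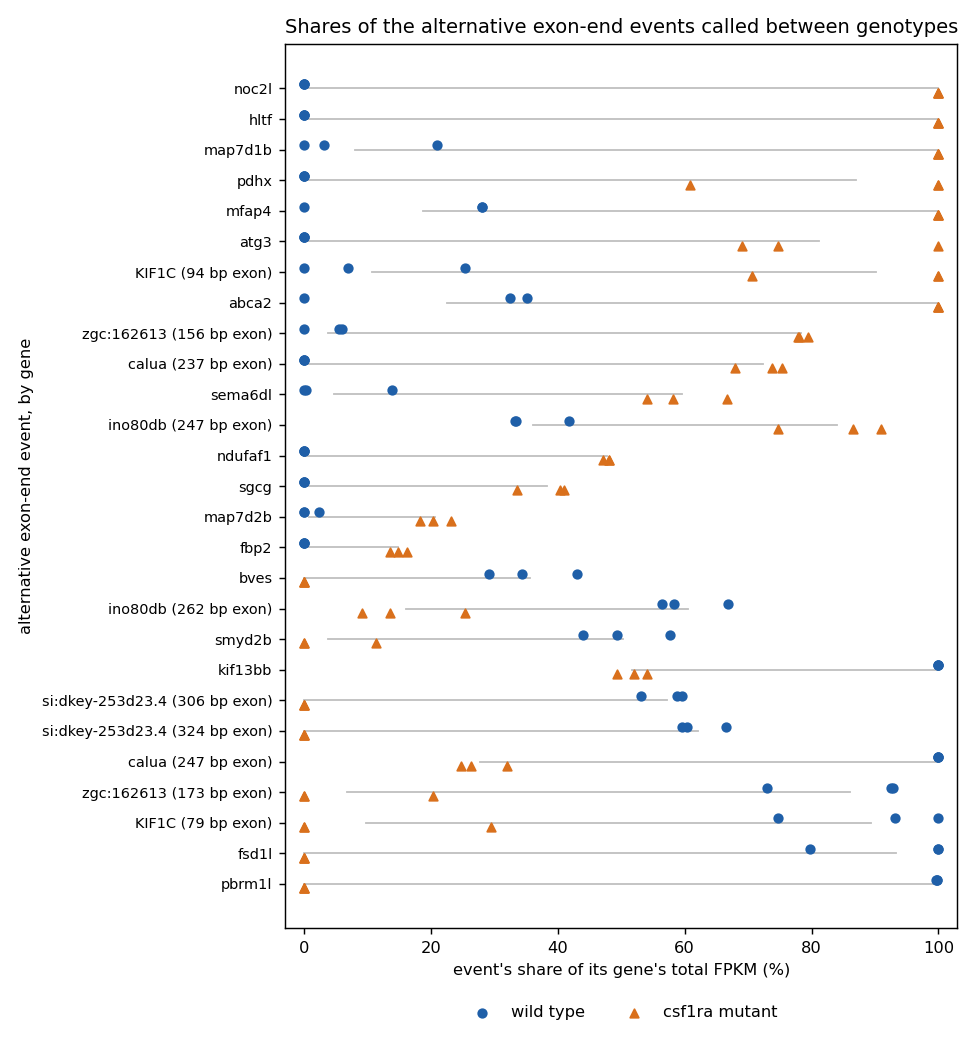
Share of the gene's total (x axis, percent) in each library for the 27 called alternative exon-end events (y axis, by gene, with the exon length where a gene has 2 events). Blue circles are wild-type and orange triangles mutant libraries, a grey line joins the 2 means, and an unlisted event is drawn at 0; in each row the genotypes do not overlap.

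Over the 22 genes, 2 were called on their total, si:dkey-253d23.4 and map7d1b, both lower in the mutant. Among the 2156 host genes of members in that test, 40 were called (1.86%), against 2.42% of the 15475 genes tested. The 40 were 18 higher and 22 lower, against 1.21% higher and 1.2% lower over all genes. A test of the abundance of each event, in place of its share, called 54 of the 3267 members (1.65%), against 1.99% of events of all types. Of these, 29 were higher and 25 lower in the mutant, against 0.998% and 0.989% of events of all types. Of the same 54, 17 had a host gene that was itself called, and 20 were among the 27 events called on their share. The 54 became 34, 33 and 30 without wild-type replicate 1, mutant replicate 1 and mutant replicate 2, and the 40 host genes became 11 to 19 without any one of the libraries other than mutant replicate 3 and 64 without that one. In 10 of the 22 genes an event of another type was called on its share, against 29 of the 1297 genes with a tested event (2.24%). In 2 of the 10, zgc:162613 and sema6dl, the other call was an approximate exon-end event with the same coordinates. Events of one gene share its total and its transcripts, so these calls are not independent. In the authors' deposited table, which tests transcripts with the authors' own p-values, 12 of the 21 of these genes with a tested transcript had at least 1 with an adjusted p under 0.05 (57.1%). The same was so for 453 of the 1268 host genes of tested events (35.7%) and for 30.1% of all genes in that table. The direction of those tests was not used here, because the sides of the comparison are not named by genotype.

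Exons called only on the share among their own forms were named after their values were seen. In carkd, an exon with 3 forms, 1 form held 17.0%, 9.22% and 17.7% of the exon in wild type and 74.1%, 70.8% and 57.4% in the mutant (52.8 points, SE 6.95, adjusted p = 0.0363). Its share of the gene had an adjusted p of 0.0595, and the longest carkd form had 0.153 on the share of the exon. In kcnn1a, a gene of calcium-activated potassium channels, 1 of 3 forms went from 26%, 33.0% and 30.2% to 81.5%, 76.6% and 67.0% (45.3 points, SE 6.64, adjusted p = 0.0363). In BX470259.1, a pair of forms 72 bp apart changed places, the first being the sole form listed in wild type and not listed in mutant replicates 1 and 3 (adjusted p = 0.0363). In ubb, 1 of 9 joined events passed too (adjusted p = 0.0363). In tnnt3b, the fast-muscle troponin T gene, 1 of 8 joined events passed, at an adjusted p of 0.0499. Some events joined in ubb and tnnt3b do not overlap each other, so a transcript can hold more than 1 of them. In mutant replicate 1, such a pair in tnnt3b stood at 52.0 and 51.7 FPKM. The shares in these groups are thus not those of alternative forms of a single exon. On the share of the gene, the named forms of kcnn1a, ubb and tnnt3b had adjusted p of 0.445, 0.337 and 0.312. The first BX470259.1 form had 0.327 there, and the other did not enter that test. The longest kcnn1a form, lower in the mutant, had an adjusted p of 0.536 on the share of the exon. The tnnt3b total stood at 677, 412 and 412 FPKM in wild type and 52.1, 62.4 and 81.1 FPKM in the mutant (log2 change -2.90, adjusted p = 0.00137), and the forms listed differed between libraries of one genotype.

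To fill the list of named events, lower shares that missed the threshold were taken by smallest p. Only events without overlap between genotypes and at least 10 percentage points apart could be taken. The thrb event, in the gene of thyroid hormone receptor β (chromosome 19, 18063470 to 18064261), stood at 58.4%, 57.6% and 53.8% in wild type and 18.5%, 11.5% and 26.9% in the mutant (adjusted p = 0.0595). That the genotypes did not overlap for thrb and the others named here follows from that choice. Events of rsrp1 (33.4% ± 9.4), EIF1B (13.4% ± 1.8), scn8aa (20.1% ± 5.1) and igsf9ba (26.7% ± 8.0) were listed in all wild-type libraries and in no mutant library, with adjusted p of 0.0595 to 0.0733. EIF1B is a translation initiation factor gene and scn8aa a neuronal sodium channel gene. In the limma test of event abundance, where an unlisted event also entered as 0, rsrp1, EIF1B and scn8aa passed (adjusted p = 0.00029, 7.96e-05 and 0.0148). The igsf9ba event did not (0.0522). The rsrp1 total was 73.0 ± 8.2 FPKM in wild type and 37.9 ± 12 FPKM in the mutant (adjusted p = 0.0718 in limma). The nav3 event, in a gene of axon navigation, went from 100% to 74.6% ± 5.0 (adjusted p = 0.0864), and the sgip1a event, in a gene of endocytosis at synapses, from 100% to 50.1% ± 18 (adjusted p = 0.122).

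By function, 2 of the 9 gene lists with a tested event held a called one. The lists do not hold every gene of a function, and the called events of sgcg, bves and ndufaf1 lay outside them. With 1.25% of all tested events called, lists of this size would hold few calls at the background share. Of 65 tested events in 32 genes of splicing factors and small nuclear ribonucleoproteins, 0 were called and 4 did not overlap between genotypes (6.15%, against 14.6% of all tested events of this kind). Their median difference was 0.19 points and their median absolute difference 7.24 points, against 7.76 points over all tested events. The members of smallest p were in srsf11, khdrbs1a, ddx5 and celf2, with adjusted p of 0.622 to 0.691. The srsf11 form stood at 44.4 and 44.3 FPKM in mutant replicates 1 and 2, was not listed in mutant replicate 3, and stood at 13.3 FPKM in wild-type replicate 1 alone.

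Among xanthophore and pteridine genes, 7 events in 4 genes were tested and 0 were called, with a median difference of 1.78 points. The qdprb1 event, in a gene for a dihydropteridine reductase, stood at 100%, 100% and 86.0% in wild type and 81.3%, 77.9% and 62.6% in the mutant (adjusted p = 0.455), without overlap. The pax7a and pax7b events, in transcription factor genes of xanthophore development, had adjusted p of 0.962 and 0.972, and mycbp2 had 0.892. The xanthophore markers gch2 and aox5 were lower in each mutant library, gch2 at 100 to 111 FPKM in wild type against 11.3 to 16.6 FPKM, but neither had a member event. The CSF1 receptor and ligand genes csf1ra, csf1rb, csf1a, csf1b and il34 had no member event either.

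Of the macrophage and microglia list, 1 event was tested, that of mfap4 described above. Muscle contractile genes, a list without sgcg and bves, had 13 tested events in 5 genes with 0 called. Their median difference was 5.48 points, and events of tnnt3b, atp2a1, mybpc1 and ttn.2 had adjusted p of 0.312 to 0.861. Neuron and synapse genes had 13 tested events in 6 genes with 0 called and a median difference of -3.49 points. The nrxn1a event, a 24 bp exon of a synaptic adhesion gene, stood at 39.8%, 42.8% and 53.7% in wild type and 14.4%, 34.1% and 27.5% in the mutant (adjusted p = 0.501). The genotypes did not overlap for nrxn1a. Events of gria2b and map1aa had adjusted p of 0.756 and 0.815.

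Glycolysis and gluconeogenesis genes had 6 tested events in 4 genes, of which 1, in fbp2, was higher. Those of eno1a, aldoca and ldhbb had adjusted p of 0.756, 0.756 and 0.867. Ribosomal protein and translation factor genes had 5 tested events with 0 called, in rpl10, rplp1, pabpc4 and eif4h (adjusted p of 0.627 to 0.756). Oxidative phosphorylation genes had 4, in ndufv3 and ndufab1b, and clock genes 2, both in cry1ba, with 0 called. The lens crystallin list had 3 members and no tested event, and the exocrine pancreas list had no member. Events without overlap between genotypes were 5 of 13 in the neuron list (38.5%) and 3 of 13 in the muscle list (23.1%). They were 2 of 6 for glycolysis (33.3%), 2 of 5 for ribosomal proteins and translation factors (40.0%) and 1 of 7 for xanthophores (14.3%). Oxidative phosphorylation had 0 of 4, and both cry1ba events and the mfap4 event did not overlap. Of all tested events, 14.6% did not overlap.

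The csf1ra gene lies on chromosome 14, 3170816 to 3202038. Within 10 Mb of it, 22 alternative exon-end events in 13 genes were tested, 0 were called and 5 did not overlap between genotypes (22.7%, against 15.4% over all types). Of these 5, 2 were the forms of a single exon. Over the whole chromosome 82 were tested, 0 were called and 19 did not overlap (23.2%). Across chromosomes this proportion ran from 6.9% on chromosome 10 to 25.6% on chromosome 13. Within 10 Mb of csf1ra, the event of smallest p lay in zgc:110843 (ENSDARG00000073845). Its forms, 7599652 or 7599682 to 7599854, differ by 30 bp at the upstream end. The long form stood at 44.2%, 45.7% and 54.1% in wild type and at 75.5%, 74.3% and 70.9% in the mutant, and the short form held the rest. The short form, of smallest p, differed by -25.6 points (SE 5.68, adjusted p = 0.145) and the long form by 25.6 points (SE 6.22, adjusted p = 0.191), while the abundance of the long form rose from 6.59 ± 0.49 to 11.1 ± 0.52 FPKM (adjusted p = 0.0205). Events of brd8 and thoc2 followed, with adjusted p of 0.503 and 0.669.

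The approximate alternative exon-end events, a second class in which the tables mark the match between forms as inexact, were counted apart. This class had 893 members in 559 genes, of which 458 could be tested and 14 were called (3.06%, against 1.45% of all types). Of these, 11 were higher and 3 lower in the mutant, in 10 genes. Those of zgc:162613, sgcg and sema6dl (4 events) have the same coordinates and values as events above and are not further observations. Among the other 10, the pairs in e2f3, TUBGCP6 and ptcd2 have equal FPKM in every library, which leaves 7 distinct sets of values, so the 3.06% counts some observations more than once. The aarsd1 event (chromosome 12, 6025608 to 6025764), in a gene related to alanyl-tRNA synthetases, went from no listing in wild type to the whole gene in all 3 mutant libraries (adjusted p = 0.000767). A pair of exons of e2f3, a transcription factor gene of the cell cycle, went from no listing to 88.9%, 98.7% and 99% (adjusted p = 0.00134). The myef2 event (chromosome 18, 5563299 to 5564025) fell from 95.1% ± 0.57 to 0 (adjusted p = 0.000795) and that of the gene annotated BAZ2B (1 of many) from 40.6% ± 7.9 to 0 (adjusted p = 0.0246). The count of 14 fell to 1 when only events listed in all 6 libraries were tested and to 6, 8 and 9 without wild-type replicate 2, wild-type replicate 3 and mutant replicate 1.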

How the data were processed

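RNA from whole embryos was measured in 3 wild-type and 3 csf1ra-/- libraries. Each library's table holds the authors' FPKM per transcript-structure event, per the file headers, and lists no event at 0. The tables share one catalogue of events. The event codes, AE for alternative exon ends and XAE for the approximate kind, are per the file headers. Per the submitters' processing notes, the build is GRCz10 and the tools, with no role or order, are HISAT2 2.0.1, Cufflinks 2.2.1, SAMtools 0.1.18, HTSeq 0.6.1, Trimmomatic 0.30 and DESeq. A second deposited table gives the authors' p-value and adjusted p-value per transcript, of which counts per gene were used.

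A gene's total was the larger of its summed first-exon and last-exon FPKM. Shares (percent) were tested with limma 3.58.1 in R 4.3.3 (trend and robust, two-sided, genotype as the only term, Benjamini-Hochberg adjustment, threshold 0.05) over events of all types with at least 1 FPKM in 3 libraries, a gene total of at least 1 FPKM in all 6 and a mean share of 5% to 95%. Event and gene abundances were tested on log2(FPKM + 1), whose fold changes understate those of low genes. An event not listed in a library entered as 0. The share test was tried on simulated shares, where no call had the wrong sign and most of the shifted events were missed. Those shares had normal noise and no unlisted events, so the trial does not cover calls that rest on an unlisted event. Read depth is unknown. The SDs given are the spread between libraries. The SEs and limma p-values also draw on the spread of all events in the same fit. The noc2l event, with an SD of 0 in both genotypes, thus had an SE of 5.36 points. Replicate numbers were not taken to pair the libraries, and the labels do not say whether they do. Same-numbered deviations correlated at 0.0193, -0.0696 and -0.00639, and others at -0.0561 to 0.0661. Such a check can miss a pairing.

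The members and the 12 gene lists were chosen with earlier results of these data known. Named were the called events and, to fill the lower direction to 15, those of smallest p without overlap and at least 10 points apart. Up to 4 were taken per list and near csf1ra, and up to 4 approximate events per direction. The 5 genes with most events and the 5 most abundant events were added. Further genes were named after their values were seen. Exon sequences are not printed. A few genes that this rule takes are not reported here. Alternatives covered the filters, unlisted events, scale, gene total, test options, replicate block and left-out libraries.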

Additional observations from a re-analysis of the deposited data

How the results depend on the processing

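Each of the 27 and 14 called events kept its sign under every alternative it entered. Other named events were not run under these alternatives. In all called events the genotypes did not overlap. Leaving out a library or changing filters or test options therefore could not have reversed a sign. The balance of higher and lower calls did turn, from 16 and 11 to 12 and 15 on the log2 ratio with a pseudocount of 1. The count of called alternative exon-end events (27) stayed within 1.5 times, at 20 to 29, with other limits on the mean share or the gene total, logit or log2-ratio scales, first-exon totals, exon shares, no trend and robust options, or this event type alone in the fit. A similar count did not mean the same events. Of the first 27 calls, the log2 ratio with a pseudocount of 0.1 kept 14 and lost 13. The logit scale lost 6, as did the fit with no limit on the mean share, and this event type alone lost 4. The count of 27 moved to 1 with unlisted shares missing, 2 with events listed in all libraries, 16 with last-exon totals, and 13 to 21 with a library left out. The approximate events (14) moved to 7 with gene totals of at least 5 FPKM, 0, 1 and 5 under the first 3 of those settings, and 6 to 15 with a library left out. Called event abundances (54) moved to 19 with a minimum of 5 FPKM and 30 to 50 with a library left out. Called host genes (40) moved to 26 with a pseudocount of 0.1, 25 without trend and robust options, and 11 to 64 with a library left out, 64 being without mutant replicate 3. With the replicate number as a block, the counts were 0, 0, 20 and 9; unadjusted p under 0.05 was reached by 156 alternative exon-end events in limma with the block and by 168 without it. The cause of these moves was not tested.

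Leaving out a library also removes residual degrees of freedom. With unlisted shares missing, 139 alternative exon-end and 42 approximate events had an unadjusted p under 0.05 in limma. The 9 events called under every alternative other than the block and those they could not enter were both of calua, both of si:dkey-253d23.4, and those of noc2l, ndufaf1, hltf, fsd1l and pbrm1l. Of these, 8 were not listed in 1 genotype. Those 8 could not enter the fits with unlisted shares missing or with events listed in all libraries, where most calls were lost. The hltf event also could not enter the fit with gene totals of at least 5 FPKM. Being in this group thus reflects in part which fits an event could not enter.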
